A study of Mus musculus with 2 samples.

Results

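The miR-17 to miR-92a cluster is a group of miRNAs that are cut from a common primary transcript, and 9 of its mature arms were measured here among 1900 miRNA probes. The members were chosen by name, with earlier results of these data known. They are the probes called mmu-miR-17-5p, mmu-miR-17-3p, mmu-miR-18a-5p, mmu-miR-18a-3p, mmu-miR-19a-3p, mmu-miR-19b-3p, mmu-miR-20a-5p, mmu-miR-20a-3p and mmu-miR-92a-3p. The RNA came from epididymal adipose tissue, the fat pad beside the epididymis, of male C57BL/6J mice. Mice entered the study at 8 weeks of age and ate their diet for 8 weeks: 1 array was hybridised with RNA of the normal-diet group, whose food held 5% fat, and 1 with RNA of the high-fat group, whose food drew 60% of its energy from fat. The number of animals behind an array is not stated in the labels. With 1 array per diet there was no test, no p-value and no spread between animals, and a difference between the diets cannot be told apart from a difference between the arrays. In whole tissue, fewer cells of a type and less RNA per cell cannot be told apart either.

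miRNAs guide the silencing complex to messenger RNAs through the seed, bases 2 to 8 of the mature strand, so miRNAs with a common seed share most targets. Of the arms of a hairpin, the guide is mostly loaded into the complex and the passenger mostly degraded. The miR-17 to miR-92a transcript is induced by MYC and by E2F factors and is known for driving proliferation: the miR-17 and miR-20a arms repress cell cycle inhibitors such as Cdkn1a. In fat cell precursors the cluster has been reported to speed differentiation by repressing the retinoblastoma family gene Rbl2.

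The 9 members were all found in the RefSeq miRNA table (build GRCm38.p6), and their mature sequences are shown because the members are grouped by their seeds here. Bases are written 5′ to 3′ with the seed in capitals. The guide arms carry 4 different seeds.
miR-17-5p: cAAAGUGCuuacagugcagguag
miR-20a-5p: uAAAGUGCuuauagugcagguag
miR-18a-5p: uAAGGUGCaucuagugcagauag
miR-19a-3p: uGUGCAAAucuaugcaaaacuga
miR-19b-3p: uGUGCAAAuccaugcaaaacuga
miR-92a-3p: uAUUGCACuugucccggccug
The seeds of the 3 passenger arms differ from these and from each other. That of miR-17-3p is also the seed of miR-106a-3p and miR-20b-3p.
miR-17-3p: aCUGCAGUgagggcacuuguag
miR-18a-3p: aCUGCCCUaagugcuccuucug
miR-20a-3p: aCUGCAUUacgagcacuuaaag

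The listed arms of the cluster span 813 bases of the plus strand of chromosome 14 (chr14:115043684-115044496), in the order miR-17, miR-18a, miR-19a, miR-20a, miR-19b-1 and miR-92a-1. Only the arms of miR-92a-1 lie inside the annotated RNA of the host gene Mir17hg, a long non-coding RNA. Whether that annotation covers the whole primary transcript was not tested. miR-19b-3p and miR-92a-3p have the same mature sequence from further hairpins on the X chromosome (Mir19b-2 and Mir92-2), so their spots measure the product of both loci. Other members differ by few bases, counted from 1 at the 5′ end of the first-named miRNA: miR-19a-3p and miR-19b-3p match at 22 of 23 positions (U11C), and miR-17-5p and miR-20a-5p at 21 of 23 (C1U and C12U). Whether the probes keep such pairs apart was not tested.

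On the normalised scale the miR-19 pair showed the largest differences of the members, which were lost with another background. The normalised intensity of miR-19a-3p was 102.4 with normal diet and 214.1 with high-fat diet. That of miR-19b-3p was 296.2 and 616.6. The log2 differences, high-fat minus normal diet, were 1.06 for each, and these were the only members past 2-fold on that scale. With the local background described further on they were 0.0078 and -0.012. Here, spot intensities were freed of the blank level, given an offset of 50 and quantile-scaled between the arrays, which draws the differences of dim spots toward 0. The net signal, which is the spot minus the mean of the array's blank spots with no scaling, differed less evenly between the pair. It was 41.2 against 171.8 for miR-19a-3p (ratio 4.17) and 232.6 against 544.0 for miR-19b-3p (ratio 2.34).

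miR-18a-5p, a sister of the miR-17 arms with a seed that differs from theirs, was also higher on the high-fat array. Its normalised intensity was 79.0 on normal diet and 152.3 on high-fat diet (log2 difference 0.95). Its net signal was 21.1 against 107.3, a ratio of 5.08, or 4.60 to 5.66 when each net signal is moved by 2 SD of the blank spots. Among the 6 guides and miR-17-3p this was the highest net ratio, although the offset left the normalised difference just under 2-fold.

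The miR-17 and miR-20a guides, which share a seed, were higher by less, and turned to -0.29 and -0.48 with the local background. miR-17-5p stood at 273.4 on normal diet and 405.0 on high-fat diet (log2 difference 0.57). miR-20a-5p stood at 222.6 and 308.2 (0.47). Their net ratios, 1.84 and 1.72, were also close to each other.

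miR-92a-3p, the last guide of the transcript, was nearly level, at 143.2 on normal diet and 136.0 on high-fat diet (log2 difference -0.07, but 0.43 with spike-control scaling and 0.11 with no scaling). Its net signal was 80.2 and 92.3. Along the transcript the guides therefore read 0.57, 0.95, 1.06, 0.47, 1.06 and -0.07, and these spots did not differ by a common amount on the normalised scale. The spots of miR-19b-3p and miR-92a-3p also measure the X-linked hairpins. Whether the arms of the common precursor differed by unequal amounts was not tested.

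**Figure D1:**
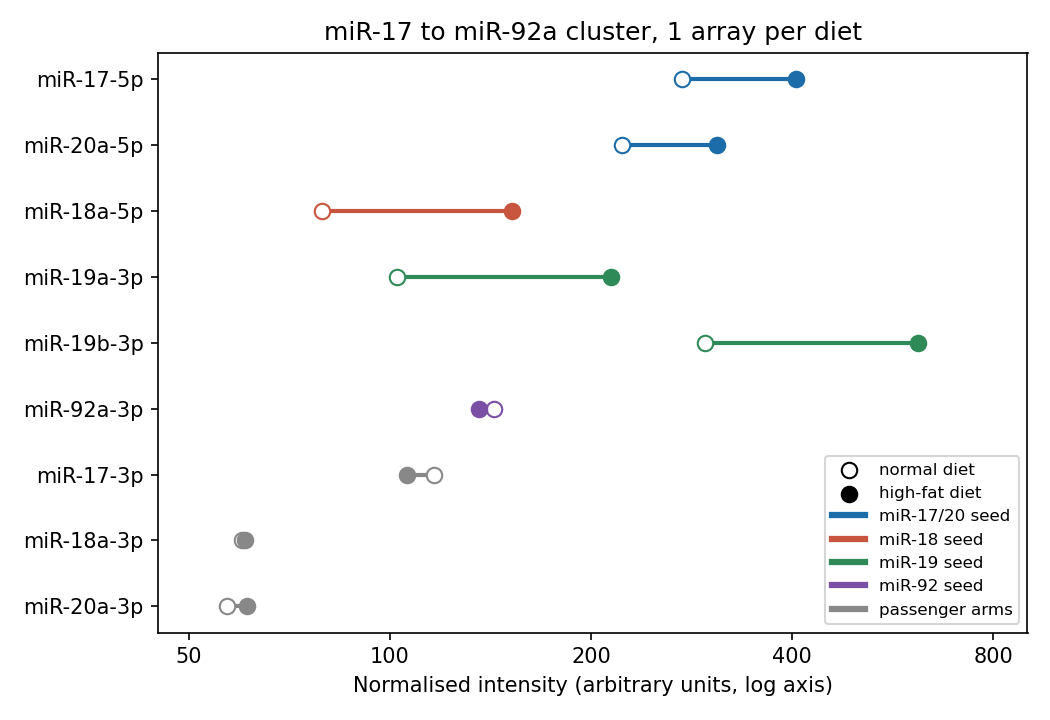
Normalised intensity of the 9 members on a log axis, with an open circle for the normal-diet array and a filled circle for the high-fat array, coloured by seed. The miR-17, miR-18, miR-19 and miR-20 guides lie to the right on high-fat diet, whereas miR-92a-3p, at 143.2 and 136.0, and the 3 passenger arms lie close together. Levels of different probes are not comparable.

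The passenger arms gave little. miR-17-3p, the brightest of them, stood at 116.3 on normal diet and 106.2 on high-fat diet (log2 difference -0.13, but 0.34 with spike-control scaling and 0.018 with no scaling). The hairpin of miR-17 is shown with both measured arms in capitals, since its guide and passenger went apart by 0.70 on the log2 scale.
Mir17 hairpin (chr14:115043671-115043754, plus strand, GRCm38.p6): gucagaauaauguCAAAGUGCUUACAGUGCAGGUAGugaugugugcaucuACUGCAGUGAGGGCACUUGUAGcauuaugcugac
With the local background that gap was -0.13. miR-18a-3p stood at 60.1 and 60.8 (0.017), and miR-20a-3p at 57.02 and 61.2 (0.10).

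Detection set a limit for these dim arms. A miRNA counted as detected when its spot lay above the mean of the blank spots by more than 2 of their SD, after 5% of the blanks had been trimmed at each end, that is, by 1.87 units for normal diet and 1.59 for high-fat diet. All 9 members passed on both arrays, as did 1339 of the 1900 miRNAs. Of 174 spots labelled as holding no probe, however, 89.7% and 94.3% passed as well, with a 95th percentile of net signal of 7.33 and 6.93. The net signals of miR-18a-3p (4.56 and 8.29) and miR-20a-3p (2.13 and 8.79) were below that percentile on normal diet and just above it on high-fat diet. No direction was read for these 2 arms, although the authors' deposited table lists miR-20a-3p at 3.95 and 13.7. The 6 guides and miR-17-3p had net signals of at least 21.1.

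Of the 9 members, 7 had a log2 difference above 0, against 35.2% of the 1339 miRNAs detected on both arrays. These 7 include miR-18a-3p and miR-20a-3p, without which the count was 5 of 7. With the local background 4 of the 9 were above 0, against 46.7% of all 1339, and the member median lay at -0.0070 relative to the median of all. On the main scale 2 members were at least 2-fold higher, against 1.27%. None was at least 2-fold lower, against 0.747%. The member median was 0.47 and the median of all 1339 was -0.04. Among the 670 miRNAs at or above the median level of these 1339, the background shares were 38.5% above 0 and 2.54% at least 2-fold higher. In that set miR-19a-3p ranked 15 and miR-19b-3p 16 from the top, followed by miR-18a-5p at 19, miR-17-5p at 45 and miR-20a-5p at 58, with miR-92a-3p at 354 and miR-17-3p at 440. These shares and ranks describe 2 arrays and are no measure of chance, since the members share a transcript.

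**Figure D2:**
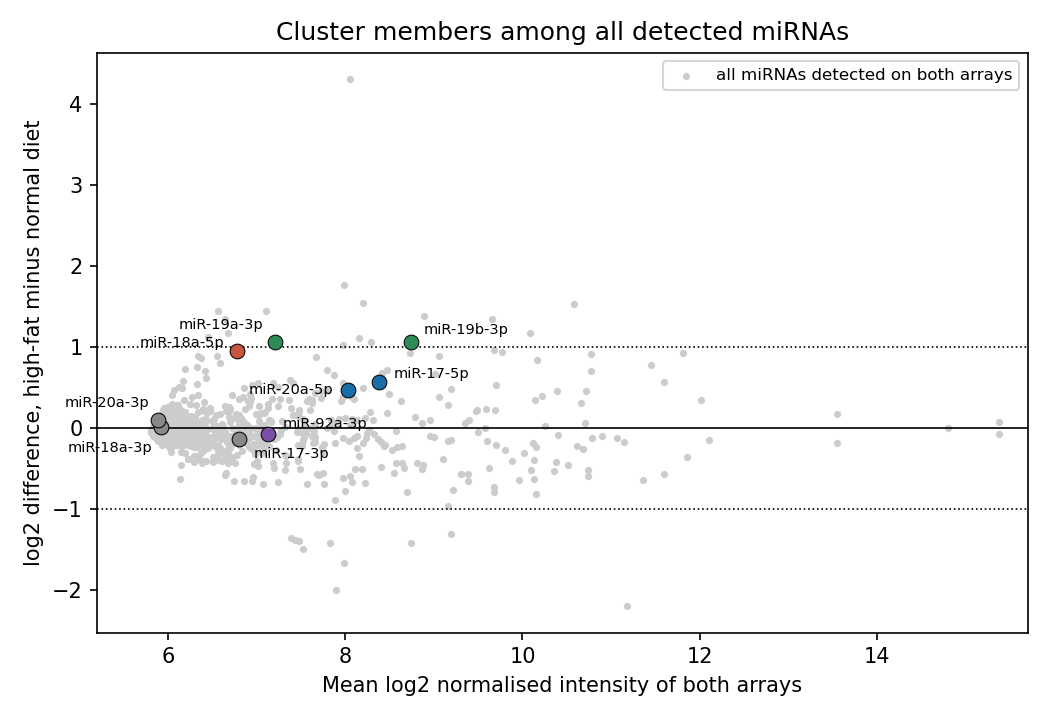
log2 difference (high-fat minus normal diet) against the mean log2 normalised intensity of both arrays for the 1339 miRNAs detected on both (grey), with the 9 members coloured by seed and dotted lines at 2-fold. miR-19a-3p and miR-19b-3p lie just above the upper line, and miR-92a-3p and the passenger arms lie within the main cloud.

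The only error at hand was that of repeated control spots. The controls S-Probe26 and S-Probe27, with 8 spots each per array and net signals between 97.3 and 445.3, gave an SD of 0.11 for the log2 difference of a single pair of spots. The brighter control S-Probe28, with net signals of 2194 and 1595, gave 0.20. This SD covers printing and scanning within an array and leaves out animals, extraction and labelling. Against 0.11, the 5 guides above 0 lay 4 or more SD from 0 and miR-92a-3p within 1 SD.

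Differences between seed groups do not depend on a shift common to the whole array. The miR-19 pair exceeded the miR-17 and miR-20a pair by 0.54 on the log2 scale, 4.85 times the control-spot SD of that contrast. With every scaling, the smaller offset, plain subtraction and the authors' deposited values this gap lay between 0.47 and 0.83, and with the local background it was 0.39. miR-18a-5p exceeded the miR-17 and miR-20a pair by 0.43 (0.40 to 1.51 over the same settings, 1.05 with the local background). The miR-17 and miR-20a pair in turn exceeded miR-92a-3p by 0.59 (0.56 to 0.76), but lay 0.32 below it with the local background, a log2 gap of -0.32. The miR-19 pair exceeded miR-92a-3p by 1.13 (1.03 to 1.59), against 0.06 with the local background. Within seed groups the members lay closer on the normalised scale: miR-17-5p and miR-20a-5p differed by 0.10. miR-19b-3p was at -0.0070 relative to miR-19a-3p, although this was -0.83 in the authors' deposited values, where no offset was added.

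The cluster has a pair of paralogues, the miR-106a to miR-363 cluster on the X chromosome and the miR-106b to miR-25 cluster on chromosome 5, whose guides carry the miR-17, miR-18 and miR-92a seeds. The X-linked copies of miR-19b and miR-92a are counted with the members. The guides nearest in sequence to the members are shown to set their differences side by side. miR-17-5p matches miR-106a-5p at 22 of 23 positions (U10A), and miR-20a-5p matches miR-20b-5p at 21 of 23 (U1C and U10C). Likewise, miR-18a-5p matches miR-18b-5p at 21 of 23 (A18U and A20U).
miR-106a-5p: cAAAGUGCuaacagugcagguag
miR-20b-5p: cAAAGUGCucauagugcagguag
miR-18b-5p: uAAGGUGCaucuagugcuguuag
miR-106b-5p: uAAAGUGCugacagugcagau
miR-93-5p: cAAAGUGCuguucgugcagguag
miR-25-3p: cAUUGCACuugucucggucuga

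Of the 7 paralogue guides, 3 had a log2 difference above 0, against 35.2% of the 1339 miRNAs detected on both arrays. Past 2-fold higher there were 0, against 1.27%. Their median was -0.05, near the -0.04 of all 1339. On the X chromosome, miR-20b-5p was at 206.8 and 305.4 (log2 difference 0.56), miR-18b-5p at 66.1 and 96.8 (0.55) and miR-106a-5p at 289.8 and 333.7 (0.20). miR-18b-5p had a net signal of 9.97 against 48.9, a ratio of 4.91, beside the 5.08 of miR-18a-5p. With the local background miR-20b-5p was at 0.79 and miR-20a-5p at -0.48, and miR-106a-5p turned to -0.71.

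The miR-106b to miR-25 cluster lies in an intron of the replication gene Mcm7. Its miR-106b-5p, which shares the seed of miR-17-5p, was lower on high-fat diet, at 260.7 and 177.5 (-0.55). This sign held with every setting tried, but with spike-control scaling the difference was only -0.13, near the control-spot SD of 0.11. miR-93-5p (329.0 and 311.9, -0.08) and miR-25-3p (178.7 and 172.2, -0.05) were nearly level, the latter beside miR-92a-3p at -0.07, whose seed it shares. Of the other miRNAs with that seed, miR-32-5p was at -0.21 and miR-92b-3p at -0.022. miR-363-3p was at -0.09, but its net signals of 3.63 and 1.71 lay under the 95th percentile of the spots with no probe on both arrays. All of these except miR-106b-5p turned positive with spike-control scaling, miR-93-5p to 0.42 and miR-32-5p to 0.27, and miR-93-5p, miR-25-3p and miR-92b-3p did so with no scaling as well.

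**Figure D3:**
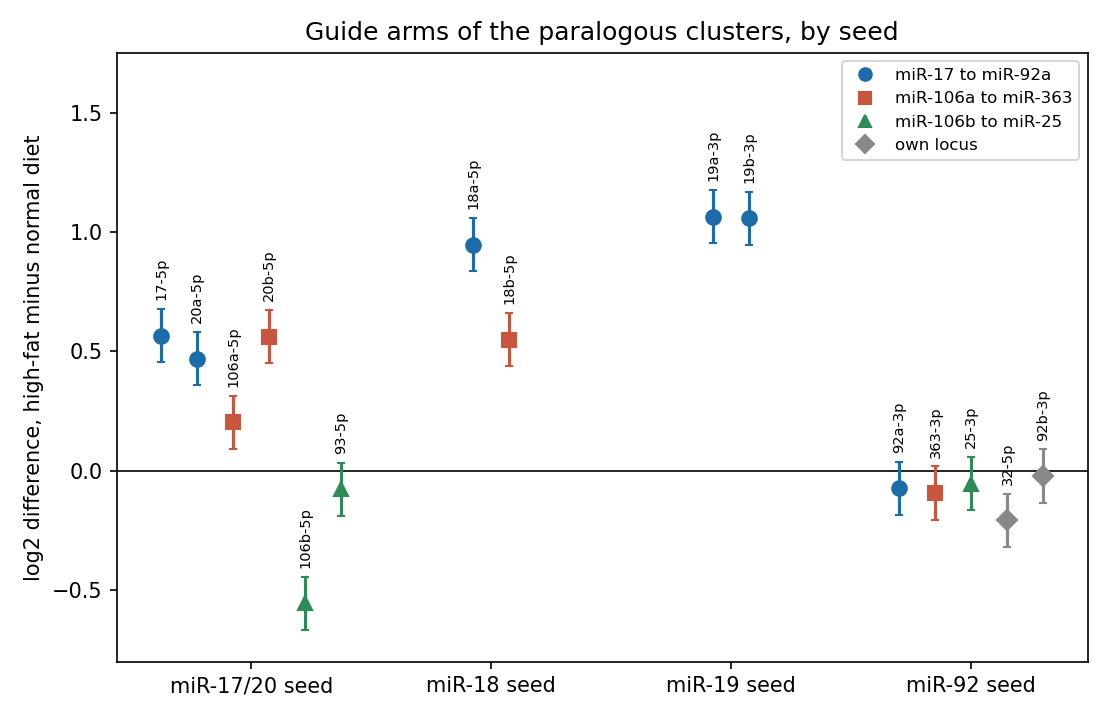
log2 difference (high-fat minus normal diet) of each guide arm by seed, with symbol and colour for its cluster and bars of 1 control-spot SD (0.11), which leave out differences between animals. miR-17-5p, miR-20a-5p and miR-20b-5p lie near 0.5 whereas miR-106b-5p, with the same seed, lies at -0.55, and the miR-92 seed group lies near 0.

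The other arms of these hairpins were mostly at the blank level. Of the 5 remaining arms (miR-19a-5p, miR-19b-1-5p, miR-19b-2-5p, miR-92a-1-5p and miR-92a-2-5p), only miR-92a-2-5p was detected on both arrays, at 135.7 and 123.9 (-0.13). Its difference was 0.35 with spike-control scaling, 0.029 with no scaling and 0.097 with the local background. miR-19b-1-5p was detected on the high-fat array only, at a net signal of 1.87, and no fold was given. Of 7 passenger arms of the paralogues, 4 were detected on both arrays, with differences from -0.26 (miR-363-5p) to 0.023 (miR-25-5p), among them miR-106b-3p (-0.07) and miR-18b-3p (-0.04). These negative signs depended on the scaling: with spike controls miR-363-5p was at 0.24 and miR-106b-3p and miR-18b-3p at 0.35 each. miR-20b-3p and miR-93-3p were detected on normal diet only, at net signals of 2.67 and 2.61 that lay under the 95th percentile of the spots with no probe, and no fold was given. miR-106a-3p was detected on neither array.

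The differences of 5 guides depended on how the background was taken. Each scanner file also gives a background intensity measured around the spot, and it followed the light of the spot: among 501 miRNAs with a net signal over 20 on both arrays, it held a median share of 0.586 of the net signal with normal diet and 0.560 with high-fat diet, after its own mean at the blank spots was taken off. That share was higher on the high-fat array for 45.3% of these miRNAs and for 5 of the 6 guides.

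For miR-19a-3p the share was 0.727 on normal diet and 0.902 on high-fat diet. The spot minus its local background was then 22.4 and 23.0. For miR-20a-5p the share was 0.628 and 0.881, and for miR-17-5p 0.523 and 0.765. miR-18a-5p went the other way, with 0.522 and 0.319, and its spot minus local background was 21.2 and 79.3.

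With the local background in place of the blank mean, miR-18a-5p was at 0.67, miR-19a-3p at 0.0078, miR-19b-3p at -0.012, miR-17-5p at -0.29, miR-20a-5p at -0.48 and miR-92a-3p at -0.06. The X-linked miR-18b-5p was at 0.25 with it. miR-18a-5p, miR-18b-5p and miR-20b-5p were thus the guides higher on high-fat diet by more than the control-spot SD of 0.11 under both backgrounds. For miR-20b-5p, however, the local background held 0.994 of the net signal on normal diet, and the spot minus local background was 12.03 and 78.1.

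**Figure D4:**
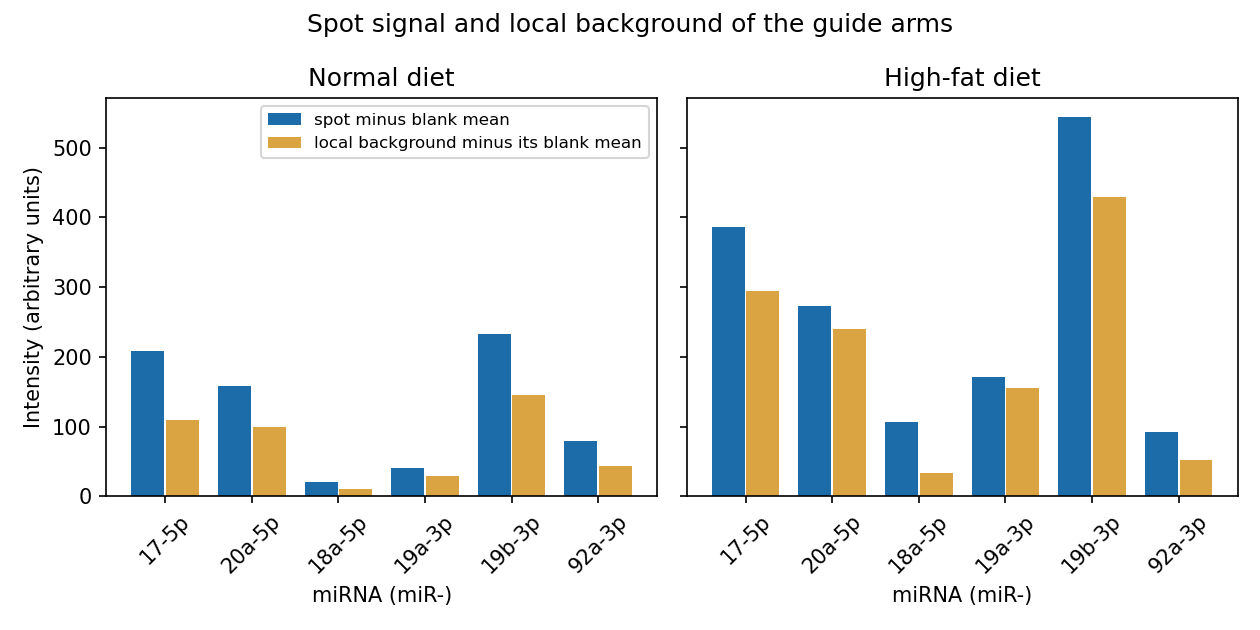
Bars of the net signal (spot minus blank mean) and of the local background minus its mean at blank spots, in intensity units, for the 6 guides on each array. On high-fat diet the local background nearly equals the signal of miR-19a-3p (share 0.902) and stays low for miR-18a-5p (0.319).

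Scaling to the spike controls put the median of all 1339 miRNAs at 0.35 in place of -0.04. All 9 members were then above 0, as were 94.2% of the 1339. Relative to that median the guides were at 1.21 (miR-19a-3p), 1.06 (miR-18a-5p), 1.03 (miR-19b-3p), 0.71 (miR-17-5p), 0.59 (miR-20a-5p) and 0.09 (miR-92a-3p). In the authors' deposited table, which has no offset, the log2 differences were 2.09 for miR-18a-5p, 1.80 for miR-19a-3p, 0.97 for miR-19b-3p, 0.63 for miR-17-5p, 0.53 for miR-20a-5p and -0.05 for miR-92a-3p.

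**Figure D5:**
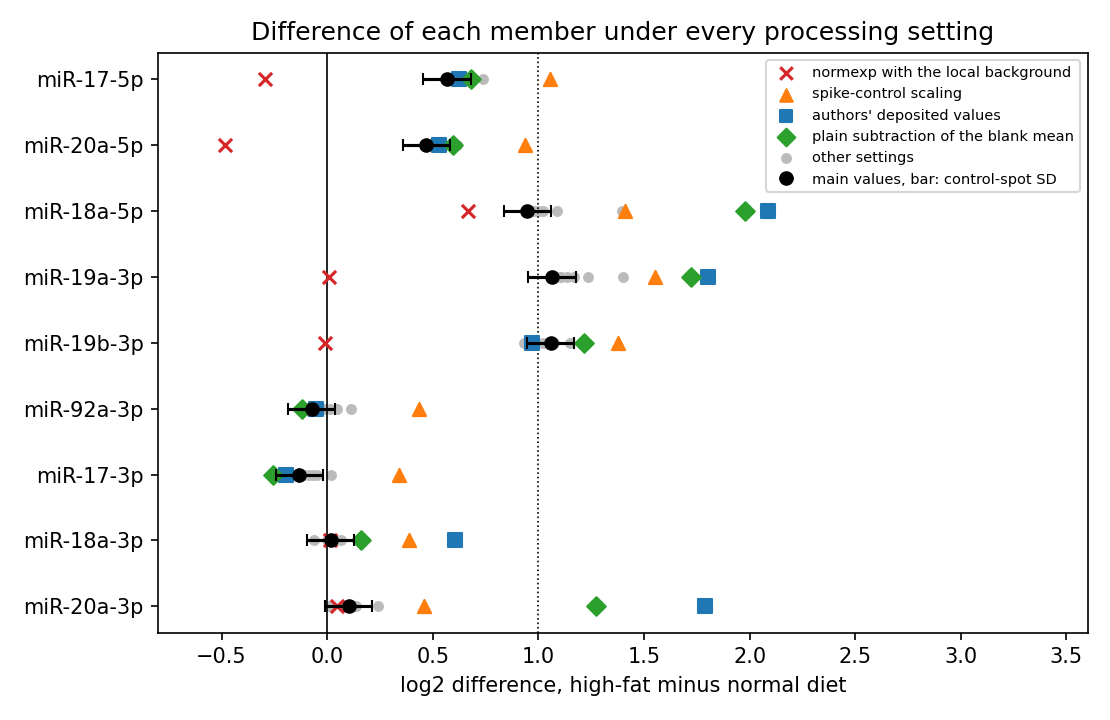
log2 difference (high-fat minus normal diet) of each member with the main values (black, bar of 1 control-spot SD), the local background, spike-control scaling, the authors' deposited values, plain subtraction and the other settings (grey), with a dotted line at 2-fold. The local background puts miR-17-5p and miR-20a-5p below 0 and the miR-19 pair at 0, and spike-control scaling puts all 9 members above 0, as it does 94.2% of all miRNAs.

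Other cell type markers differed between the same arrays. Of 6 miRNAs abundant in fat, none of which is confined to fat cells, all 6 were detected on both arrays. So were 1339 of all 1900 miRNAs, and most spots with no probe passed the same limit, so this detection cannot check the labelled tissue. The summed net signal of these 6 was 6782 on normal diet and 3353 on high-fat diet. Of 8 miRNAs listed for epididymis and testis, 4 were detected on normal diet, against 72.1% of all miRNAs. On high-fat diet 8 were detected, against 79.5%. Their summed net signal was 16.02 and 2902, so the calls on normal diet were made near the detection limit. The brightest of the 8 on high-fat diet were miR-34b-5p and miR-34c-5p, at normalised intensities of 1386 and 1179. Whether these 8 are confined to those tissues was not tested. The summed net signal of 5 epithelial miRNAs of the miR-200 family was 46.5 and 404.3. The 3 erythrocyte miRNAs summed to 5534 and 1050, the 5 leukocyte miRNAs to 799.1 and 421.3, and the 2 endothelial miRNAs to 4318 and 2670. These sums use the blank mean with no scaling. The endothelial median log2 difference was -0.67 on the main scale but 1.28 with the local background. The leukocyte median was -0.58, but -0.07 with the local background and -0.17 with spike-control scaling. With the local background the fat and erythrocyte medians were -0.80 and -1.69. The epithelial median was then 0.18, and that of the 4 epididymis and testis miRNAs detected on both arrays 0.48. The 3 muscle miRNAs summed to 37.3 and 49.7, and the hepatocyte miRNA miR-122-5p was at 2.01 and, not detected, at 1.14. The part of any of these in the differences of the cluster was not tested.

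Among the other miRNAs at or above the median level, the 5 with a log2 difference nearest to the guide median of 0.76 were miR-878-3p (0.75), miR-1195 (0.78), miR-429-3p (0.72), miR-7665-5p (0.72) and miR-3154 (0.72). This likeness is the closeness of a single number over 2 arrays. With the local background these 5 lay between -0.14 (miR-7665-5p) and 1.30 (miR-3154), and miR-1195 was at 0.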

How the data were processed

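Total RNA was labelled with Cy5 and hybridised in 1 colour to miRNA arrays, per the labels' protocols. Per the file headers, the deposited scanner files give the intensity of each spot and of the background around it, merged over 3 gains. No source used here names the software of the scanner. The authors' deposited table holds intensity values that equal the spot minus the trimmed blank mean, times 1.86 for normal diet and 1.56 for high-fat diet (largest relative deviation 4.03e-05), so their scale is linear. Its listed values have a median of 25 on each array, so the arrays were scaled to a common median. Here, normexp (limma 3.58.1, R 4.3.3, offset 50) was run on spots minus the trimmed blank mean, followed by quantile scaling over the 1900 miRNA probes and log2. The script was tested on simulated data for the main, plain subtraction, 75th percentile and spike-control settings only. Both simulated arrays had the same local background, so the setting with the local background was not tested. Of the 1900 miRNA probes, 12 name several miRNAs and were given no single name. Values with the local background, spike-control scaling (probes named Spike Control) and 9 further settings were computed. The text names all 9 members, every probe of the paralogue and other-arm lists, and the 5 miRNAs nearest to the guide median. Members, lists and settings were chosen with earlier results of these data known. Sequences are from RefSeq (GRCm38.p6), which held 28 of the 30 listed arms. The number of arrays limits the precision.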

Additional observations from a re-analysis of the deposited data

How the results depend on the processing

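No paired analysis was possible because each diet has 1 array, and no replicate could be left out. A change was counted as a move when it exceeded the control-spot SD of 0.11 or, for the count of members past 2-fold, a factor of 1.5, and as a turn of sign when the main value also lay over 0.11 from 0. Of the values for the median, the count, the seed groups, the passenger arms and the paralogues, 55 stayed within these limits, 30 moved and 3 turned sign, and with main values near 0 included 15 changed sign, the others being the miR-92a group, the passenger arms and the paralogue guides. Of the values for single members, 60 stayed, 33 moved and 5 turned sign, or 11 with main values near 0 included, the others being miR-18a-3p and miR-92a-3p. miR-20a-3p has no value with a detection limit of 3 SD. The local background gave a member median of -0.012, 0 members past 2-fold, -0.39 for the miR-17 and miR-20a pair, 0.67 for miR-18a and -0.0022 for the miR-19 pair, with miR-17-5p at -0.29, miR-20a-5p at -0.48 and miR-19b-3p at -0.012. The shares of net signal given above differ between the arrays for these spots, and the cause was not tested. Spike-control scaling gave a member median of 0.94, 4 members past 2-fold, 0.997, 1.41, 1.47 and 0.43 for the miR-17 and miR-20a, miR-18a, miR-19 and miR-92a groups, 0.39 for the passenger arms, 0.42 for the paralogue guides and 0.34 for miR-17-3p. Relative to the values with no scaling, this adds a constant. No scaling gave a member median of 0.62, 0.68, 1.09 and 0.11 for the miR-17 and miR-20a, miR-18a and miR-92a groups, 0.10 for the paralogue guides and 0.018 for miR-17-3p. Plain subtraction gave a member median of 0.68, 4 members past 2-fold, 0.64, 1.98 and 1.47 for the miR-17 and miR-20a, miR-18a and miR-19 groups and 0.16 for the passenger arms. The authors' deposited values gave a member median of 0.63, 2.09 and 1.39 for the miR-18a and miR-19 groups and 0.61 for the passenger arms. An offset of 16 gave 1.40 and 1.28 for the miR-18a and miR-19 groups. These 3 settings remove or lower the offset, which shrinks dim spots. With 75th percentile scaling 1 member passed 2-fold, with median scaling miR-92a was at 0.047, and with the detection limit of 3 SD the paralogue median was 0.075. Cyclic loess and quantile scaling over miRNAs detected on both arrays moved none of these 8 summary values beyond these limits. The count past 2-fold was 3 in place of 2 with cyclic loess, no scaling, the offset of 16 and the authors' deposited values. Of all 1339 miRNAs, 17 were at least 2-fold higher on the main scale, 15 with 75th percentile scaling and 18 with cyclic loess. That number was 20 with no scaling, 24 with the local background and 30 with the offset of 16. It rose to 45 with spike-control scaling, 64 with plain subtraction and 101 with the deposited values. The member counts of these last 2 settings include the dim miR-20a-3p (1.27 and 1.79). Signals near the blank level limit miR-18a-3p, miR-20a-3p and miR-363-3p.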

Other observations

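The guides of the cluster differ in base composition, from 34.8% G and C in miR-19a-3p, through 39.1% in miR-20a-5p and miR-19b-3p, 43.5% in miR-18a-5p and 47.8% in miR-17-5p, to 57.1% in miR-92a-3p. Across the 560 miRNAs at or above the median level that have a RefSeq sequence, G and C content and the log2 difference correlated with Pearson's r = 0.224 and Spearman's rho = 0.261. These miRNAs share 2 arrays and are not independent replicates. The median log2 difference was -0.21 over 41 miRNAs with at most 40% G and C, of which 24.4% were above 0 and 12.2% at least 2-fold higher. It was -0.02 over 357 miRNAs with at least 55%, of which 43.4% were above 0 and 1.40% at least 2-fold higher, so that the share past 2-fold ran against the medians. The miR-19 pair (1.06 each) and miR-20a-5p (0.47), which fall in the first class, thus lay above its median, and miR-92a-3p (-0.07), in the second, lay near its median. The classes include these members themselves, and the miR-19 pair is among the miRNAs past 2-fold in the first class. That share is therefore partly made of the members' own values.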
